A study of Drosophila melanogaster with 81 samples.

Results

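The Antennapedia complex of Drosophila melanogaster carries 5 Hox genes on chromosome arm 3R, which are labial (lab), proboscipedia (pb), Deformed (Dfd), Sex combs reduced (Scr) and Antennapedia (Antp). They were chosen by name from the gene table of the dm6 genome and are 5 of its 13962 protein-coding genes. Each gene was taken as its annotated span with 2 kb added on each side, here called its window, and the bases of the window that lay under peaks were counted in every list of every mark. Histone modifications were mapped by CUT&Tag, in which an antibody bound to a chromatin mark guides a transposase that cuts and tags the DNA beside it.

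The samples were whole embryos from 30-minute egg lays kept at 25°C. The control genotype was w1118. The mutant, called HisC, is homozygous for the deficiency Df(2L)HisC, which takes away the cluster of replication-dependent histone genes. In most labels one deficiency chromosome carries P{GAL4-twi.2xPE}, a GAL4 driver under the promoter of the mesoderm gene twi, and the other carries the reporter P{UAS:eYFP}AH2, and mutant embryos were picked by their eYFP. The labels of the HisC libraries of H3K27me3 at 4.5 to 5 h name only Df(2L)HisC. Both transgenes are absent from the w1118 label, so deficiency, background, transgenes and selection differ together and cannot be told apart. The marks H3K27me3, H3K36me3, H3K4me3, H3K27ac, H2AK9ac and H2BK16ac, were profiled in embryos aged 4.5 to 5 h and 5.5 to 6 h, and H3K4me3 also at 3.5 to 4 h. Of the series' 81 samples, 59 libraries stand behind the 26 peak lists used here, 13 for each genotype, with 2 or 3 libraries to a list.

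The files give only the position of each peak. Every group has 1 list, so there is no spread between replicates, no test of any difference was possible, and every difference below is a difference between 2 lists. A gene was counted as lower or higher in HisC when the 2 lists differed at least 1.5-fold and by at least 500 bp of the window, and as measured when at least 1 of the lists had 500 bp there. The share of all measured protein-coding genes that met the same rule is given as the background. Lists held 4588 to 13436 peaks that covered 5.47 to 13.7 Mb. Sequencing depth is unknown, and no peak at a gene means that none was called. Because embryos were profiled whole, a mark carried by fewer cells and a weaker mark in each cell cannot be told apart. Of 17 marker genes of the germ layers, 15 or 16 had an H3K4me3 peak in each of the 6 lists of that mark. Embryos of this age should not use chemoreceptor genes, of which 179 were looked up. In w1118, 17.3%, 15.6% and 15.6% of them had a peak, in the order of the ages. In HisC the shares were 22.3%, 27.9% and 22.3%, higher than in w1118 at each age. Of 3 male germline genes, 1 had a peak in each of the 6 lists.

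Hox genes encode homeodomain transcription factors that give each body segment its identity, and they lie along the chromosome in the order of the segments they act in. Labial acts in the intercalary segment of the head, proboscipedia in the adult mouthparts, Deformed in the mandibular and maxillary segments, Sex combs reduced in the labial segment and the first thoracic segment, and Antennapedia in the thorax. Outside their own segments they are kept silent by Polycomb group proteins, whose complex methylates lysine 27 of histone H3 (H3K27me3) over wide domains. The same lysine can be acetylated instead (H3K27ac), a mark of active enhancers and promoters. H3K4me3 lies at active promoters, H3K36me3 over transcribed gene bodies, while H2AK9ac and H2BK16ac mark acetylated H2A and H2B. In each cell division, nucleosomes with old marks are shared between the daughter strands and the gaps are filled with newly made histones, which the HisC embryo lacks once its maternal supply is used up.

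In dm6, lab spans 3R 6661427 to 6678590 (17.2 kb), pb 6707800 to 6742063 (34.3 kb), Dfd 6791836 to 6802428 (10.6 kb), Scr 6823120 to 6849981 (26.9 kb) and Antp 6896253 to 6999228 (103 kb). The windows sum to 212 kb, of which Antp makes up 50.5%, so a sum over the genes leans on Antp. The lab window also takes in the gene agt and an edge of twr on its low-coordinate side, and the pb window takes in zen2 on its high-coordinate side. The annotated gene CG46458 lies inside the Antp span and starts at the same base. The table used gives neither strand nor transcripts, and positions within a gene are therefore given in kb from its low-coordinate end. Dfd is transcribed in the direction opposite to the other members, as background, so its promoter side is the low-coordinate one. Windows with other genes inside them cannot be assigned to the Hox gene alone.

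H3K27me3 covered less of 4 of the 5 genes in HisC at both times, and Antp and lab were the members lower by the rule at both, as were 12.1% of 5666 genes, while 36.8% were higher at both. In w1118 the 5 windows held 119 kb of H3K27me3 at 4.5 to 5 h and 133 kb at 5.5 to 6 h, and in HisC 70.3 and 69.8 kb. The log2 ratio of HisC over w1118 was -0.75 and -0.93, while for the whole lists it was -0.25 and 0.00. Without Antp the ratio at the earlier time was -0.49. At the earlier time 2 of the 5 members were lower and 0 higher, beside 23.1% of 4806 measured genes lower and 60.9% higher. At the later time 3 of 5 were lower and 0 higher, beside 18.4% of 4794 genes lower and 64.5% higher. The median member had 58.2% of its window covered in w1118, against 39.4% in HisC, at 4.5 to 5 h, and 62.8% against 34.3% at 5.5 to 6 h. The median difference of the members was -18.9 and -28.6 percentage points, against 7.80 and 10.3 points over all measured genes. The HisC lists of this mark held 8320 and 8313 peaks and the w1118 lists 4605 and 4588, and many measured genes had no peak in w1118, where the median coverage was 0.

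Long genes that were broadly covered in w1118 were also counted. They were selected on high w1118 coverage, which by itself favours lower calls, so their share is a description and no measure for the members. Among windows of at least 14 kb that were covered to at least 40% in w1118, 70.7% of 123 were lower in HisC at 4.5 to 5 h and 52.3% of 128 at 5.5 to 6 h, and 0 were higher at either time. The median ratio of HisC over w1118 in these windows was 0.572 and 0.642.

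**Figure D1:**
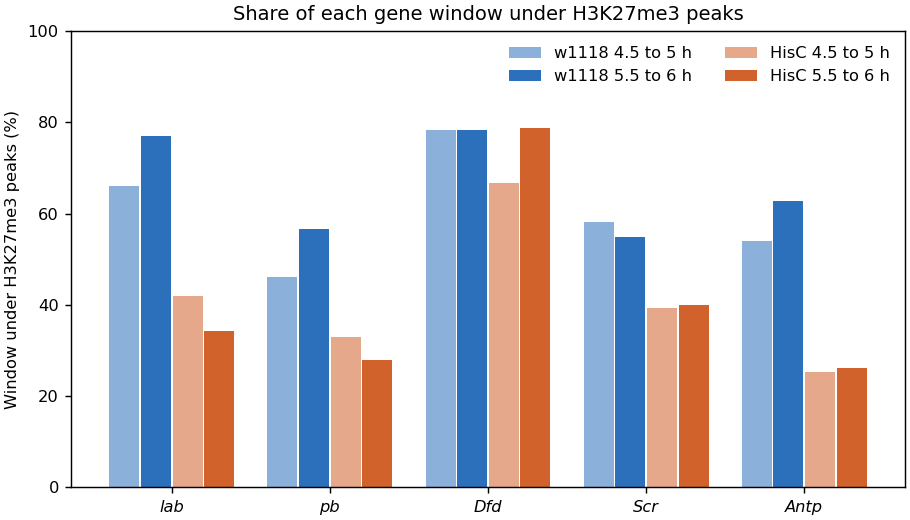
Share of each gene window under H3K27me3 peaks, in percent, for the 5 Hox genes of the complex in the 4 lists of the mark (1 list per genotype and time, so no error bars). At 5.5 to 6 h Antp stood at 62.8% in w1118, against 26.2% in HisC, whereas Dfd stood at 78.3% and 78.9%.

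Pairs of values are in the order of the ages. The H3K27me3 peaks of lab took 13994 and 16289 bp of the window in w1118, against 8850 and 7258 bp in HisC. Both HisC values lay below both w1118 values, 1.58-fold lower at the first time and 2.24-fold at the second. In w1118 at 5.5 to 6 h, 2 peaks of up to 9.77 kb covered most of the gene. In HisC 3 peaks remained at each time, around 3 to 6 kb, 8 to 11 kb and the high-coordinate end of the gene. All 3 met w1118 peaks at both times, and at 5.5 to 6 h the HisC bases lay to 100% inside w1118 peaks.

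At pb coverage was 17632 and 21634 bp in w1118, against 12623 and 10700 bp in HisC. The gene was 1.40-fold lower at the earlier time, short of the rule, and 2.02-fold lower at the later time. The peak that covers the high-coordinate end of pb and reaches zen2 spanned 7.81 and 7.88 kb in w1118. In HisC the same stretch held a peak of 2.48 kb and then one of 5.53 kb, with a gap before it. With equal numbers of the widest peaks in every H3K27me3 list, pb also met the rule at 4.5 to 5 h, at 17632 bp against 11585 bp.

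Dfd was the member whose H3K27me3 differed least. Its coverage was 11431 bp in both w1118 lists, with 9721 and 11509 bp in HisC, a difference under the rule at both times. The peaks of the 2 genotypes at 5.5 to 6 h shared 99.3% of their united bases within the window. In all 4 lists the peak on the low-coordinate side ended between 4.98 and 5.06 kb and the next began between 8.14 and 8.18 kb, so the unmarked stretch inside the gene was in the same place in each list. HisC at 4.5 to 5 h had a further gap between 1.18 and 2.85 kb, and this gap was under a peak in the HisC list at 5.5 to 6 h. Among the long and broadly covered genes, 7 had a higher ratio of HisC over w1118 than Dfd at the earlier time and 6 at the later.

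Scr was covered by 17969 and 16920 bp in w1118 and by 12148 and 12329 bp in HisC. The values were 1.48-fold and 1.37-fold lower, and neither difference met the rule, although the earlier one did with peaks of at least 500 bp, at 17969 bp against 11430 bp. The shape differed more. In w1118 most of the length came from 1 peak, of 14.7 kb at 4.5 to 5 h and 18.7 kb at 5.5 to 6 h, while HisC had 8 and 7 peaks with none over 3.34 and 4.89 kb. Scr was also the member whose HisC peaks lay outside the w1118 peaks the most, since 77.3% and 75.4% of its HisC bases were inside w1118 peaks, against 88.5% to 100% at the other 4 genes.

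Antp had the most bases under H3K27me3, 57632 and 67154 bp in w1118, against 26971 and 28012 bp in HisC. It was 2.14-fold and 2.40-fold lower. The number of peaks went the other way, 21 and 18 in w1118, against 30 and 23 in HisC, and the median peak width was 2223 and 4147 bp against 588 and 768 bp. Of the HisC peaks 29 of 30 and 23 of 23 met a w1118 peak. Between 96.6% and 99.8% of the HisC bases were inside w1118 peaks, so the HisC peaks sat as short pieces inside the w1118 domains. Among the long and broadly covered genes 35 and 20 had a lower ratio of HisC over w1118 than Antp.

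**Figure D2:**
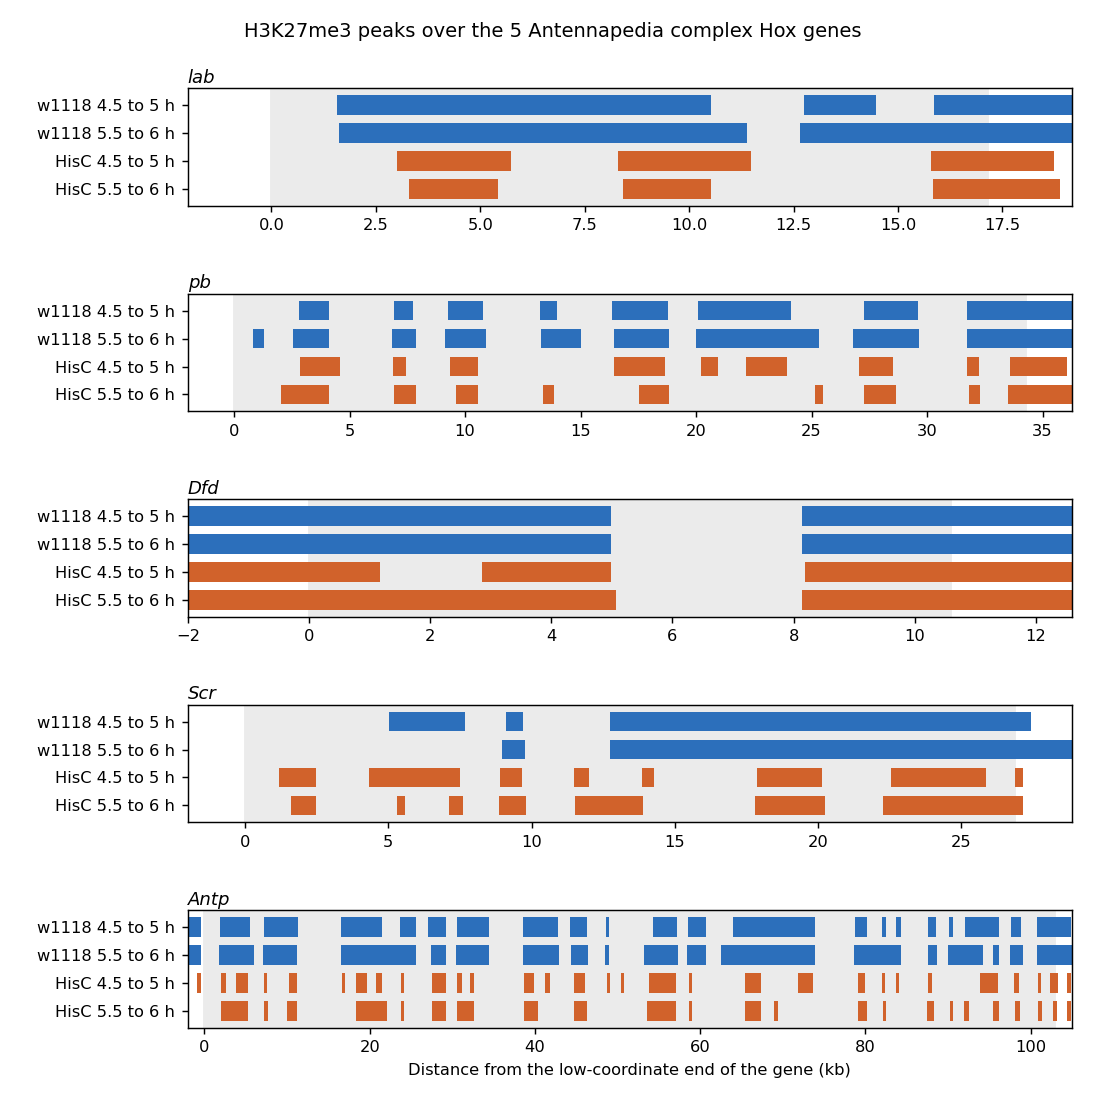
H3K27me3 peaks over the 5 gene windows in the 4 lists, drawn to scale against the distance in kb from the low-coordinate end of each gene, with the gene span marked. The long w1118 peaks at Scr and Antp lie where HisC has several short ones. The unmarked stretch between about 5 and 8.1 kb inside Dfd has nearly the same ends in all 4 lists.

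The peaks over the complex were narrower in HisC. The 5 windows held 37 and 33 H3K27me3 peaks in w1118 with a median width of 2420 and 4136 bp. In HisC they held 53 and 44 peaks with a median width of 944 and 1012 bp. Peaks of at least 5 kb numbered 8 and 12 in w1118, against 1 and 3 in HisC. The direction was also that of the whole lists, where the median width was 1634 and 1572 bp in w1118, against 779 and 924 bp in HisC.

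**Figure D3:**
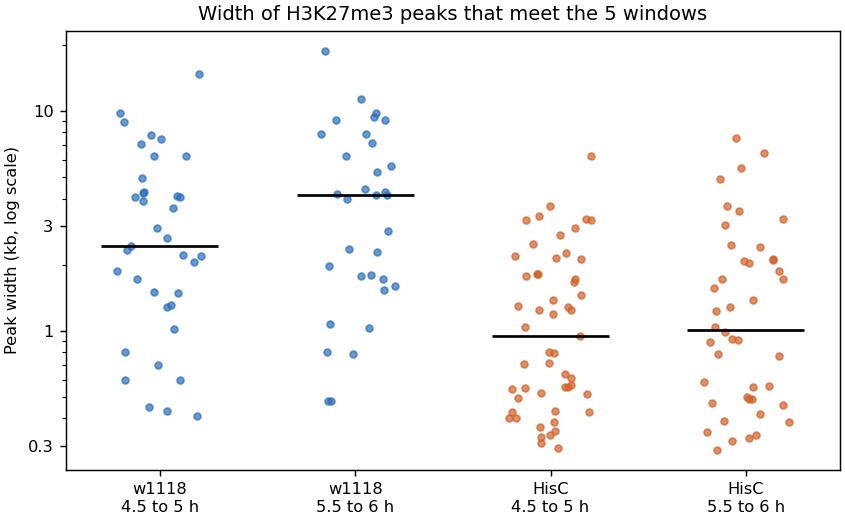
Width of every H3K27me3 peak that met one of the 5 windows, in kb on a log axis, by genotype and time, 1 point per peak. Widths reached 14.7 and 18.7 kb in w1118, against 6.23 and 7.58 kb in HisC.

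Which bases kept the mark differed between the genes. Of the bases under peaks in both w1118 lists, 85.0% were also under peaks in both HisC lists at Dfd, 51.0% at lab, 45.6% at pb, 42.6% at Scr and 35.4% at Antp. The share found in no HisC list was 0% at Dfd, 24.2% at pb, 38.0% at Scr, 43.0% at lab and 43.3% at Antp. The longest stretches marked in all 4 lists lay at Dfd, from 6800019 to 6804428, where the window ends, and at Scr, from 6845659 to 6849001 (3343 bp). The Scr stretch lies close to its high-coordinate end and overlaps the main H3K4me3 peak described below. At lab the longest such stretch, 6677281 to 6680167 (2887 bp), spans the high-coordinate end of the gene, as does the one at pb, 6741387 to 6743863 (2477 bp). At Antp it lay inside the gene at 54.2 to 57.0 kb.

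The longest stretch marked in both w1118 lists and in no HisC list was 6837386 to 6840911 (3526 bp), inside Scr. The reverse, marked in both HisC lists and in no w1118 list, came to 1490 bp at Scr, 18 bp at Antp and 0 bp at lab, pb and Dfd. Most of it was in 2 stretches of Scr, 6824726 to 6825592 (867 bp) and 6834620 to 6835140 (521 bp). In the 130 kb between the windows, H3K27me3 covered 53.5% and 56.9% in w1118, against 34.0% and 40.2% in HisC, so the lower coverage was not confined to the windows.

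H3K27ac was lower too, and no member was higher. The 5 windows held 13.1 and 15.7 kb of H3K27ac in w1118, against 6.13 and 4.97 kb in HisC. The log2 ratios were -1.09 and -1.66, against -0.02 and -0.05 for the whole lists. At 4.5 to 5 h, 2 of the 3 measured members were lower, beside 30.7% of 8473 genes lower and 25.4% higher, and at 5.5 to 6 h 4 of 4, beside 36.2% of 8893 genes lower and 20.2% higher. The genes lower at both times were pb and Antp, as were 18.0% of the genes measured.

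Antp carried most of the H3K27ac, 10231 and 12453 bp in w1118, against 4768 and 4021 bp in HisC. It had 19 and 21 peaks in w1118, against 8 and 5 in HisC. At each time 3 w1118 peaks met a HisC peak, and from the HisC side 3 of 8 and 3 of 5 peaks met a w1118 peak. Within w1118, 17 of the 19 peaks at 4.5 to 5 h met a peak at 5.5 to 6 h, and within HisC 5 of 8 did. At pb coverage was 1450 and 1297 bp in w1118, against 843 and 469 bp in HisC, and the peak at its high-coordinate end shared with zen2, 547 and 540 bp in w1118, was 281 bp in the first HisC list and missing from the second. The earlier call at pb was lost without flanks, at 1264 bp against 843 bp, and the later one with flanks of 5 kb, at 1297 bp against 913 bp.

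At lab the w1118 lists had 952 and 1432 bp and the HisC lists 518 and 480 bp. The 2 genotypes shared no base there, since the HisC peak lay 2.40 to 1.48 kb below the gene, over agt and twr, and the w1118 peaks lay inside lab or across its high-coordinate end. The call at 5.5 to 6 h was lost with flanks of 5 kb, at 3127 bp against 2385 bp, and with peaks of at least 500 bp, at 643 bp against 480 bp. Scr had 1 peak in each w1118 list, of 440 and 559 bp at 25.3 to 25.9 kb, and none in HisC. Dfd had no H3K27ac peak in any of the 4 lists.

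Most H3K27ac peaks of these genes lay on H3K27me3. In w1118, 22 of 25 peaks at 4.5 to 5 h and 27 of 27 at 5.5 to 6 h overlapped an H3K27me3 peak of the same genotype and time, and in HisC 10 of 12 and 5 of 7 did. Over the whole H3K27ac lists the share was 19.3% and 21.6% in w1118, against 19.7% and 18.7% in HisC. The windows were themselves covered by H3K27me3 to 56.0% and 63.0% in w1118 against 33.2% and 33% in HisC. As whole embryos hold cells that use a Hox gene and cells that do not, both marks can be called at 1 place without being in the same cell.

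**Figure D4:**
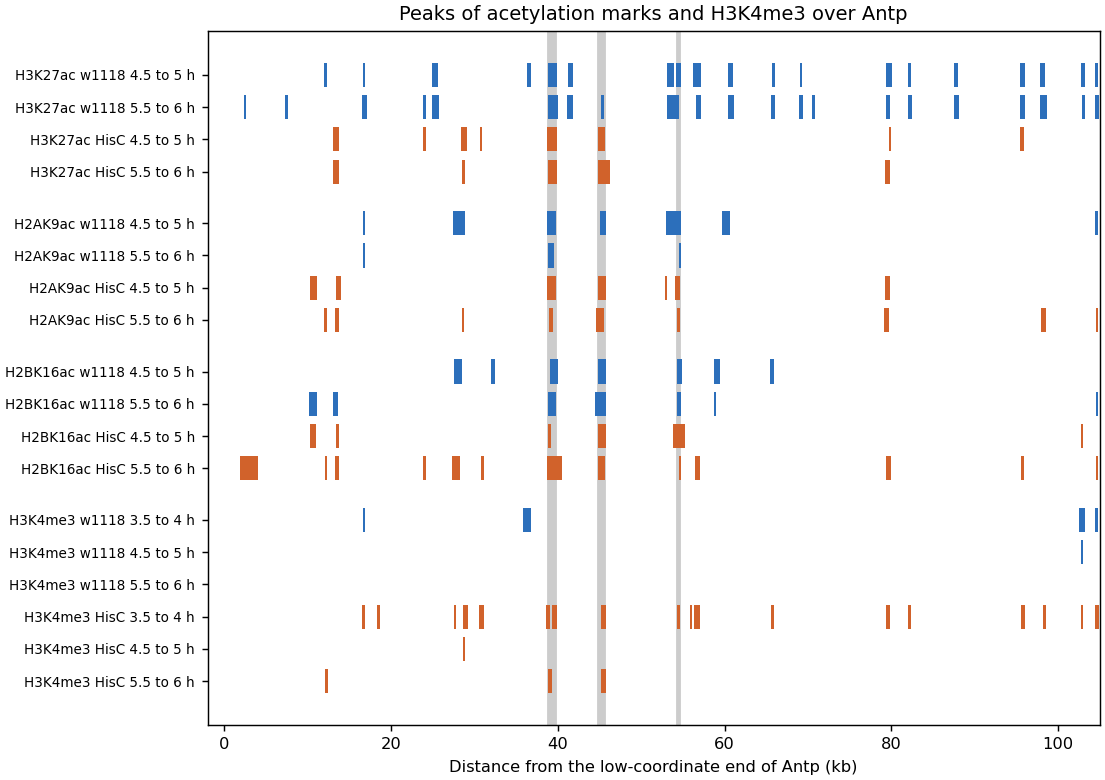
Peaks of H3K27ac, H2AK9ac, H2BK16ac and H3K4me3 over the Antp window, drawn to scale against the distance in kb from the low-coordinate end. Every list of these marks is shown. Grey bands mark the sites under a peak in at least 8 of the 12 acetylation lists. The H3K27ac rows hold 19 and 21 peaks in w1118, against 8 and 5 in HisC, and the H3K4me3 row of HisC at 3.5 to 4 h holds 18.

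H3K4me3 went apart at the 5 genes, being higher in HisC at lab and Antp at 2 of the 3 times and absent from most HisC lists at Dfd and Scr. Summed over the windows it covered 5.57, 1.91 and 1.54 kb in w1118 at 3.5 to 4 h, 4.5 to 5 h and 5.5 to 6 h, and 10.1, 2.34 and 3.79 kb in HisC. The log2 ratios were 0.86, 0.29 and 1.30, and for the whole lists 0.25, 0.27 and 0.48. At the first time 2 of 4 measured members were higher and 1 lower, beside 19.4% of 8485 genes higher and 21.8% lower. At the second, 1 member was measured and it was neither, beside 18.8% of 8253 genes higher and 11.7% lower. At the third, 3 of 4 were higher and 1 lower, beside 27.7% and 4.22% of 8253 genes. The sum at 3.5 to 4 h rested on Antp, without which its log2 ratio was -0.40, and with equal numbers of the widest peaks it was 0.066.

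At Antp H3K4me3 covered 2317, 299 and 0 bp in w1118, against 7658, 253 and 1392 bp in HisC. The difference at 3.5 to 4 h came from the number of peaks, 4 in w1118, against 18 in HisC, each of them at most 642 bp wide in HisC. They were spread from 16.6 kb inside the gene to the flank past its high-coordinate end, and 3 of the 4 w1118 peaks were met by one. All 18 overlapped H3K27me3 peaks of the later 4.5 to 5 h lists, in HisC and in w1118 alike, whereas 17.9% and 14.9% of that H3K4me3 list as a whole did. The Antp window was itself covered by H3K27me3 to 25.2% in HisC and 53.9% in w1118 at 4.5 to 5 h. Of the 4 w1118 peaks, 3 overlapped H3K27me3 of HisC and 3 that of w1118, against 13.9% and 12.5% of the w1118 list. With H3K27ac of w1118 at 4.5 to 5 h, 12 of the 18 HisC peaks overlapped, against 42.6% of the HisC list. With H3K27ac of HisC, 7 of the 18 did, against 56.9%. This HisC list held 12294 peaks with a median width of 464 bp and the w1118 list 6475 with 874 bp. With equal numbers of the widest peaks in every H3K4me3 list, Antp had 1651 and 2988 bp at 3.5 to 4 h and was still higher, but it was at 0 in both lists at 5.5 to 6 h. At 4.5 to 5 h each list had 1 Antp peak, at 103 kb in w1118 and at 28.7 kb in HisC.

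At lab an H3K4me3 peak stood across the high-coordinate end of the gene in all 6 lists. It was 902, 1023 and 411 bp wide in w1118, against 1061, 1120 and 1170 bp in HisC. The whole window held 902, 1023 and 411 bp in w1118, against 2165, 1278 and 1687 bp in HisC, higher at the first and the third time. Part of this is a HisC peak on the low-coordinate flank over agt and twr, where w1118 had no peak within the window. Its full width was 1066, 519 and 643 bp, but it runs past the window and counts only in part. Both flanks together held 862, 346 and 772 bp in HisC, against 170, 157 and 152 bp in w1118. Within the gene span alone the values were 732, 866 and 259 bp in w1118, against 1303, 932 and 915 bp in HisC. With flanks of 5 kb the first call was lost, at 2932 bp against 4267 bp.

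At pb the peak lay at the high-coordinate end. It was 681 bp wide in w1118 at 3.5 to 4 h and then absent, and in HisC it was 301, 480 and 711 bp at the 3 times. Its width was thus lower at the later ages in w1118 and higher in HisC, and the last difference alone met the rule. The same peak lies in the flank of zen2.

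Dfd had 1 H3K4me3 peak in each w1118 list, of 454, 244 and 383 bp, always between 0.545 and 0.999 kb inside its promoter side, and none in any HisC list. All were under 500 bp, so Dfd was not among the measured genes for this mark. Scr had 1211, 342 and 750 bp in w1118, against 0, 324 and 0 bp in HisC, and was lower at the first and the third time. Its main peak stood at 25.0 to 25.9 kb in each w1118 list. The 1 HisC peak, at 25.2 to 25.5 kb, shared 9.36% of the united bases with that of w1118. Dfd and Scr were thus the members without H3K4me3 in most HisC lists.

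H2AK9ac was lower in HisC at the earlier time and higher at the later one. The windows held 22.8 and 4.75 kb in w1118, against 10.9 and 8.29 kb in HisC. The log2 ratios were -1.07 and 0.80, against -0.04 and -0.10 for the whole lists. Without Antp the later ratio was 0.28. At 4.5 to 5 h, 3 of 5 members were lower and 0 higher, beside 32.4% and 28% of 10037 genes. At 5.5 to 6 h, 0 of 4 were lower and 2 higher, beside 31.5% and 30.5% of 10485 genes. In w1118 all 5 genes were lower at 5.5 to 6 h than at 4.5 to 5 h by the same rule, beside 29% of 10300 genes, and in HisC pb alone was, beside 23.5% of 9941.

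The lower members at 4.5 to 5 h were pb, with 6080 bp in w1118, against 2690 bp in HisC, Dfd, with 4568 and 0 bp, and Scr, with 3800 and 1069 bp. The 4 w1118 peaks at Dfd included one of 1193 bp over its promoter side. At 5.5 to 6 h Dfd had no peak in either genotype, pb had 1224 bp in w1118, against 1453 bp in HisC, and Scr had 1052 and 925 bp. The members that were higher at that time were lab, with 1089 bp in w1118, against 1721 bp in HisC, and Antp, with 1388 and 4188 bp. Their values at 4.5 to 5 h were 1687 and 2229 bp at lab, and 6698 and 4911 bp at Antp.

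H2BK16ac differed in both directions. Summed coverage was 12.4 and 12.5 kb in w1118, against 13.9 and 16.2 kb in HisC. The log2 ratios were 0.16 and 0.38, against 0.34 and -0.17 for the whole lists. At 4.5 to 5 h 1 of 5 members was lower and 2 were higher, beside 20.3% and 44.2% of 10081 genes, and at 5.5 to 6 h 1 was lower and 3 were higher, beside 33.8% and 26.7% of 10385.

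Scr was lower at both times, with 3325 and 2231 bp in w1118, against 1719 and 630 bp in HisC, as were 6.04% of the genes measured. At pb HisC was higher at both times, with 2233 and 1715 bp in w1118, against 5268 and 2928 bp in HisC, as were 10.7% of genes. At lab the lists held 851 and 3298 bp in w1118, against 1733 and 2246 bp in HisC, higher at the first time only. Antp had 4894 and 4750 bp in w1118, against 4154 and 9412 bp in HisC, and was higher at the second time only. Dfd had 1 peak in each list, 1097 and 463 bp in w1118, against 976 and 1032 bp in HisC. The Dfd peaks of the 2 genotypes overlapped at 4.5 to 5 h, near 3.7 to 4.8 kb, and not at 5.5 to 6 h.

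**Figure D5:**
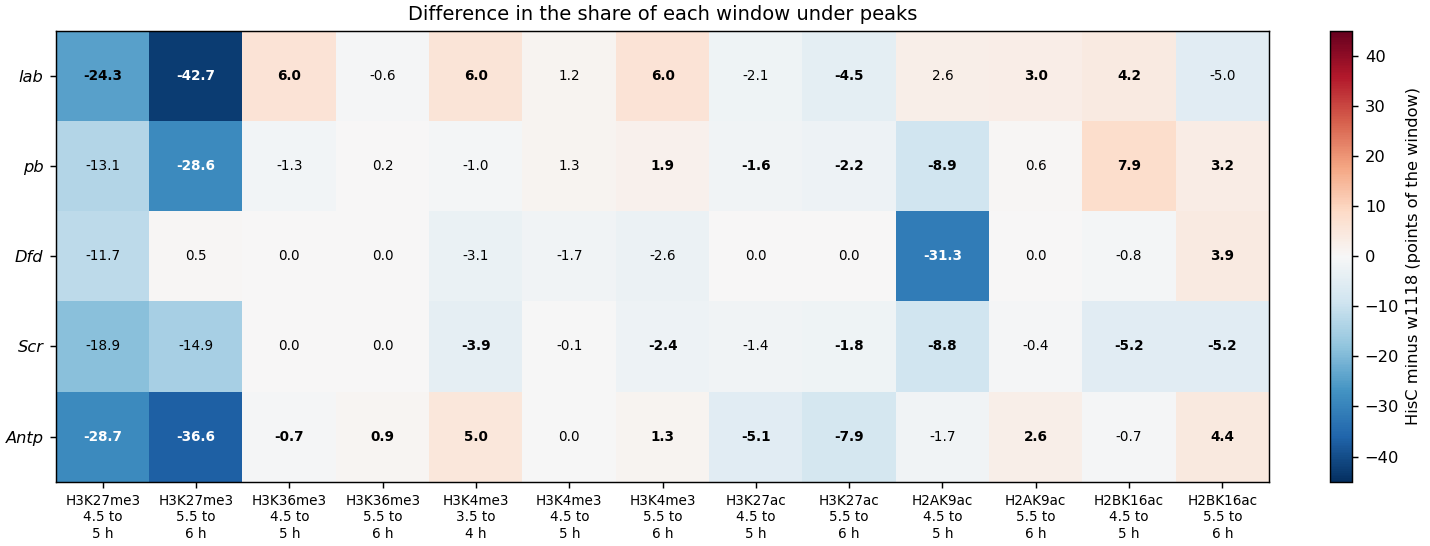
Difference in the share of each window under peaks, HisC minus w1118 in percentage points, for the 5 genes in the 13 pairs of lists. Bold numbers mark pairs that differed at least 1.5-fold and by at least 500 bp, and the strongest blue fields are H3K27me3 at lab, pb and Antp and H2AK9ac at Dfd.

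H3K36me3 was scarce over these genes. Summed coverage was 2.61 and 2.54 kb in w1118, against 2.64 and 3.43 kb in HisC. The log2 ratios were 0.01 and 0.43, against -0.01 and -0.37 for the whole lists. Dfd and Scr had no peak in any of the 4 lists. At 4.5 to 5 h, 1 of the 2 measured members was lower and 1 higher, beside 29.2% and 19.4% of 9334 genes, and at 5.5 to 6 h 0 of 3 were lower and 1 higher, beside 46.2% and 14.2% of 9351. At lab the window held 1048 and 1615 bp in w1118, against 2319 and 1490 bp in HisC. Between 392 and 853 bp of each lay in the flanks, in all 4 lists in part under a peak of 3.50 to 3.83 kb that lies mostly outside the window, over twr and agt. At pb the lists held 499 and 535 bp in w1118, against 0 and 612 bp in HisC, all at the end shared with zen2. Antp had 1065 and 392 bp in w1118, against 317 and 1327 bp in HisC, and the peaks of the 2 genotypes overlapped at neither time. The call at 4.5 to 5 h was lost for Antp without flanks, at 754 bp against 317 bp, and for lab with flanks of 5 kb, at 4048 bp against 5305 bp.

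Between the ages, the H3K27me3 coverage of the 5 genes stayed within the rule, but its positions differed more in HisC. The lists of the ages shared 80.5% (pb), 78.2% (Scr) and 81.2% (Antp) of their united bases in w1118. In HisC they shared 52.1%, 56.4% and 58.2%. At lab the shares were 85.4% in w1118 and 79.4% in HisC, and at Dfd 100% and 84.5%. The HisC label of this mark names transgenes at 5.5 to 6 h only, so age is not its only difference. By the same rule no member differed between 4.5 to 5 h and 5.5 to 6 h in either genotype, beside 20.8% of 2297 genes lower at the later time and 15.1% higher in w1118, and 19.5% of 5266 lower and 28.8% higher in HisC. For H3K4me3 in w1118, pb, Scr and Antp were lower at 4.5 to 5 h than at 3.5 to 4 h, beside 11.7% of 7875 genes. In HisC lab and Antp were lower, beside 17.7% of 8418.

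The 3 Hox genes of the bithorax complex, which act in the posterior thorax and the abdomen, lie elsewhere on the same arm. All 3 had, at 4.5 to 5 h, less H3K27me3 in HisC by the rule, with Ubx at 42429 bp in w1118, against 22776 bp in HisC, abd-A at 18606 and 9887 bp and Abd-B at 36646 and 17793 bp. At 5.5 to 6 h 1 of 3 did, with Ubx at 48049 and 32859 bp, abd-A at 19843 and 15075 bp and Abd-B at 37198 and 22298 bp. The HisC coverage at these 3 genes was larger at the later time, as it was at Dfd, Scr and Antp, while at lab and pb it was smaller. Whether the complexes differ was not tested. Of the bases marked in both w1118 lists, 43.6% at Ubx, 56.5% at abd-A and 46.1% at Abd-B were marked in both HisC lists, all between the values of Antp and Dfd.

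H3K27ac was lower at 2 of the 3 bithorax genes at 4.5 to 5 h, beside 30.7% of 8473 genes. At 5.5 to 6 h it was lower at all 3, beside 36.2% of 8893 genes. At 5.5 to 6 h Ubx stood at 9061 bp in w1118, against 1265 bp in HisC, abd-A at 2996 and 357 bp and Abd-B at 3983 and 752 bp. H2AK9ac was lower at 2 of 3 at 4.5 to 5 h, with 0 higher, beside 32.4% of all measured genes lower and 28% higher. At 5.5 to 6 h it was higher at 2 of 3, with 0 lower, beside 30.5% higher and 31.5% lower. The order of directions was that of the 5 Antennapedia complex Hox genes. Of the 4 other homeobox genes of that complex, 0 were lower and 2 higher, and then 0 and 3. Of Ama and the Ccp84A cuticle genes, 2 were lower and 0 higher, and then 0 and 4.

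The Antennapedia complex holds other homeobox genes, which act before the Hox genes or outside segment identity. All 4 of them, zen, zen2, bcd and ftz, had smaller H3K27me3 coverage in HisC at 4.5 to 5 h, with ratios of HisC over w1118 between 0.558 and 0.746. At 5.5 to 6 h the ratios were 1.25 at zen, 0.966 at zen2, 0.939 at bcd and 0.681 at ftz. By the rule 1 of 4 was lower at 4.5 to 5 h, the pair-rule gene ftz, with 2812 bp in w1118, against 1569 bp in HisC, and 0 of 4 at 5.5 to 6 h. The window of zen2, which overlaps that of pb, was covered to 100% in both w1118 lists and to 74.6% and 96.6% in HisC. Of the 8 genes formed by Ama and the Ccp84A cuticle genes, which lie between the Hox genes, 5 were lower and 1 higher at the earlier time and 5 lower and 3 higher at the later. These 8 are not separate counts, since windows of neighbours can hold the same peaks. Ccp84Aa and Ccp84Ab, for example, both had 986 bp of H3K27ac in HisC at 5.5 to 6 h. The cofactor gene hth, whose protein binds DNA together with Hox proteins, had 40998 and 36170 bp of H3K27me3 in w1118, against 9705 and 9743 bp in HisC, and the cofactor gene exd had no H3K27me3 peak in any list. Of 19 Polycomb group genes found in the table, 6 were measured for H3K27me3, with 3 lower and 1 higher at 4.5 to 5 h and 2 and 2 at 5.5 to 6 h. Over all measured genes, 23.1% were lower and 60.9% higher in H3K27me3 at 4.5 to 5 h, and 18.4% and 64.5% at 5.5 to 6 h.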

How the data were processed

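The authors deposited 1 list of peak positions per group (chromosome, start counted from 0, end), without height, score or p-value. Per the submitters' processing notes, the genome was dm6 and the tools were Bowtie2 2.3.4.2, Trim Galore 0.6.6 with cutadapt 1.17, deepTools 3.3.1 and SAMtools 1.9. Which program called the peaks, at which threshold, and how libraries were joined is not given in the sources used here. By its name each list had blacklisted regions taken out. H3K27ac and H3K4me3 have narrow-type lists and the other marks broad-type ones, and the earliest H3K4me3 list of HisC names an exclusion of unstated meaning.

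Peak bases inside each window were counted with Python 3.11.15, NumPy 2.4.6 and pandas 2.3.3, and the counting was tested on simulated peaks. Gene spans came from the RefSeq table of dm6. Depth and precision are unknown. The members and the gene lists were chosen with earlier results of these data known. Named genes were all members, the comparison lists (1 Polycomb group symbol was not found in the table) and the 5 genes of most similar profile. Alternatives were windows without flank or with 5 kb, only peaks of 500 bp or more, as many of the widest peaks in each list of a mark as the shortest list holds, peaks under 1 kb apart joined, and at least 50% of a peak in the window. No sequences are given, since no genome was used here.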

Additional observations from a re-analysis of the deposited data

Results flagged for a closer look

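H2AK9ac summed over the 5 genes had a log2 ratio of HisC over w1118 of -1.07 at 4.5 to 5 h and 0.80 at 5.5 to 6 h, so the 2 times differed in sign; this difference was not tested. H3K36me3 at Antp was -748 bp in HisC relative to w1118 at 4.5 to 5 h and 935 bp at 5.5 to 6 h, also opposite in sign and not tested. The H3K36me3 values rest on 1 or 2 peaks per list.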

How the results depend on the processing

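Over 6 alternatives, 71 of 78 values of the summed log2 ratios kept their standing against the 1.5-fold limit. A change of direction was counted as kept where both values were under that limit. H3K27me3 ranged from -0.98 to -0.73 at 4.5 to 5 h and from -1.12 to -0.93 at 5.5 to 6 h. With peaks of at least 500 bp, H3K36me3 was 0.71 and 1.13, and H3K4me3 at 3.5 to 4 h 0.36. H3K36me3 at 5.5 to 6 h was 1.01 without flanks and 0.74 with at least 50% of a peak in the window. With equal numbers of the widest peaks H3K4me3 was 0.066 at 3.5 to 4 h and 0.42 at 5.5 to 6 h. Leaving out Antp, an alternative chosen after seeing the data, gave -0.49 for H3K27me3 at 4.5 to 5 h, 0.28 for H2AK9ac at 5.5 to 6 h and -0.40, a reversed direction, for H3K4me3 at 3.5 to 4 h. For single genes, 369 of 390 values stayed lower, higher or neither as in the main setting, 8 lost a call, 13 gained one and 0 reversed. In the main setting 33 of the 65 pairs of gene and comparison had a call. Only these pairs could lose or reverse one. Apart from Antp and the number or size of peaks, which the alternatives themselves change, the cause was not tested.

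No paired analysis was possible because each group has 1 list, and leaving out a replicate was not run for the same reason. Lists of unknown depth limit every value, since a deeper list can hold more and wider peaks.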

Other observations

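Acetylation came back to a few places inside these genes. Sites under a peak in at least 8 of the 12 lists of H3K27ac, H2AK9ac and H2BK16ac were sought after the values were seen. At Antp, 6935111 to 6936045 (935 bp) reached a point marked in all 12 lists, 6 of each genotype. A second Antp site, 6941098 to 6941905 (808 bp), was marked in all 6 HisC lists and in 4 of 6 w1118 lists, and another, 6950608 to 6950904 (297 bp), in 6 w1118 and 4 HisC lists. At lab one site spans the high-coordinate end of the gene, 6678337 to 6678688, with 6 w1118 and 3 HisC lists and an H3K4me3 peak in all 6 lists of that mark, and the other lies just inside it, 6678166 to 6678310 (145 bp), with 4 lists of each genotype. At pb it lies inside the gene, 6726148 to 6726355 (208 bp), with 3 w1118 and 6 HisC lists. Each of these sites was also under H3K27me3 in all 4 lists of that mark. No base of Dfd was marked in more than 3 of the 12 lists, and none of Scr in more than 7.

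Coverage over the 26 lists was compared with the mean of the 5 members by Pearson's r among 2971 candidate genes. Candidates had a window of at least 8 kb, covered to at least 5% in at least 1 list. Genes with only a CG or CR number, and those overlapping the members' windows, were left out. Most similar were Lim1 (r = 0.987), eyg (0.987), Abd-B (0.986), Cph (0.985) and Sp1 (0.983), and 87 candidates were above 0.95. The 26 values share libraries' lists and are set mainly by H3K27me3: without its 4 lists the same genes had r between 0.425 and 0.609. Among the members, r with the mean of the other 4 was 0.943 to 0.987, and without H3K27me3 it was lowest at lab (0.208) and highest at pb (0.846). These r are descriptions across lists, with no test.

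By the rule, H3K4me3 at 3.5 to 4 h was higher in HisC at 2 of the 3 bithorax genes and lower at 0. Of all 8485 measured genes, 19.4% were higher and 21.8% lower. Coverage of w1118 against HisC was 2762 against 4348 bp for Ubx, 2261 against 3953 bp for abd-A and 1740 against 1465 bp for Abd-B. The HisC list held 12294 peaks and the w1118 list 6475. Whether these calls hold with equal numbers of the widest peaks was not tested. At each of the 2 later ages, 1 of 2 measured bithorax genes was lower and 0 higher.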
